A study of Mus musculus with 6 samples.

Results

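The dual-specificity MAP kinase phosphatases are a family of 10 genes, Dusp1, Dusp2, Dusp4, Dusp5, Dusp6, Dusp7, Dusp8, Dusp9, Dusp10 and Dusp16, out of 19057 named genes on the array. All 21 probes whose platform annotation gives one of these symbols, of 45281 probes in all, were taken. The genes were selected by their known function, with the differences of Dusp4 and Dusp5 between FEAT and control clones already in view, so every FEAT against control value of a family member is given below as a description and not as a test.

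MAP kinase phosphatases remove phosphate from both the threonine and the tyrosine in the activation loop of MAP kinases and so switch these kinases off. Dusp1, Dusp2, Dusp4 and Dusp5 encode inducible nuclear enzymes, Dusp6, Dusp7 and Dusp9 encode cytoplasmic enzymes that prefer ERK, and Dusp8, Dusp10 and Dusp16 encode enzymes that prefer JNK and p38. Several of these genes are themselves induced by the kinases that their products inactivate, which makes their transcripts widely used readouts of MAP kinase activity in fibroblasts.

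RNA was measured in 6 stable clones of NIH3T3, a line of immortalized embryonic fibroblasts from NIH Swiss mice, with 1 one-colour Illumina bead array per clone. The 3 FEAT clones (titles FEAT-3, FEAT-15 and FEAT-20, here FEAT 3, FEAT 15 and FEAT 20) carried pEF-DEST51-FEAT, in which the elongation factor 1 alpha promoter drives the human FEAT reading frame. FEAT, also called METTL13, is a methyltransferase of the translation factor eEF1A. Transfected cells had 7 days of blasticidin S at 10 µg/ml, and colonies with raised FEAT protein were kept. For the control clones the study's text states stable transfection and gives no drug, dose or duration. The 3 control clones (titles ΔccdB-1, ΔccdB-2 and ΔccdB-3, here control 1, control 2 and control 3) carried pEF-DEST51-ΔccdB, the same vector without ccdB and without FEAT. Each clone is a separate line grown from picked cells, so the spread within a group is the spread between clones. The probes are for mouse transcripts, and the level of the human insert was not checked here. In bulk RNA of a clone, fewer cells with a transcript and less of it per cell cannot be told apart.

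Array means before scaling ran from 616 to 735 intensity units, and 36.9% to 39.8% of the probes exceeded an array's background limit. Of the 13 fibroblast markers, 11 were above that limit on all 6 arrays, among them Vim, Col1a1, Fn1 and Thy1, whereas Postn and Lum were above it on none. Of the endothelial markers, 0 of 6 were above it on all arrays, of the haematopoietic markers 1 of 5 (Cd14), of the muscle markers 1 of 6 (Des) and of the epithelial markers 2 of 7 (Cdh1 and Krt14). Krt14, a keratin of basal epithelia, was bright, at a mean of 20215 in control and 23453 in FEAT clones, while Krt5, Krt8, Krt18 and Epcam were at background on all arrays. The summed intensity of the fibroblast markers was 45927 to 48206 in control clones and 50749 to 60971 in FEAT clones, and its part in the differences below was not tested.

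In the text, intensities are those of the deposited value table, in which every array has a mean of 680, and they still contain the array background, whose limit lay at 94.2 to 109 units on this scale. Log2 differences are FEAT minus control after background correction and quantile normalization, with the moderated standard error (SE) of the fit over all probes. On the brightest probe, 8 of the 10 genes were above the limit on all 6 arrays. Dusp9 was above it on none and was too dim to be tested, and Dusp2 was above it on 1 array. Of the 9 genes tested, 6 had a positive and 3 a negative log2 difference, with a median of 0.11 beside 0.0071 over all 13315 genes tested. Without Dusp2, which was mostly at background, 5 were positive and 3 negative, with a median of 0.21. The 9 genes tested, Dusp2 included, had a median absolute difference of 0.31 beside 0.13 over all genes tested.

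**Figure D1:**
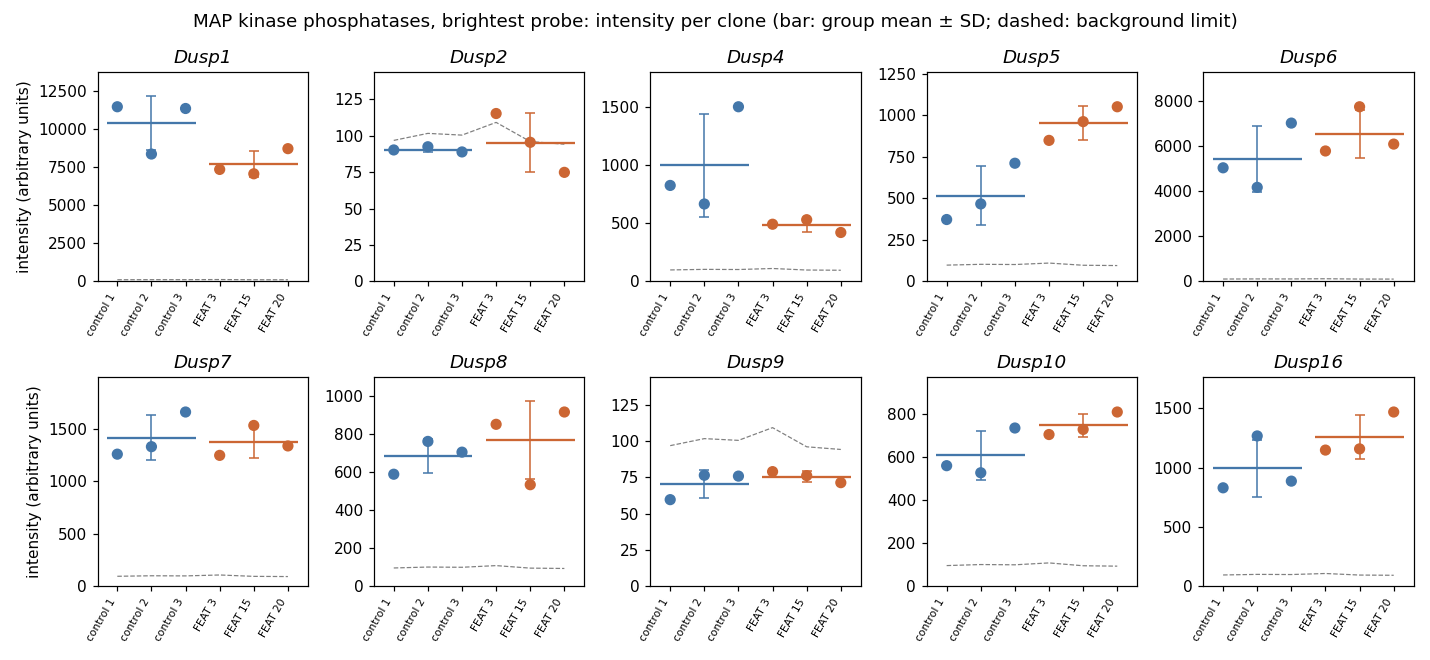
Intensity of the brightest probe of each phosphatase gene (vertical axis, arbitrary units from 0) in the 3 control clones (blue) and the 3 FEAT clones (orange); horizontal bars and whiskers are the group mean ± SD and the dashed line is the background limit of each array. Dusp5 lies at 848 to 1050 in FEAT clones, above the 371 to 710 of control clones, Dusp4 lies at 419 to 528 below 663 to 1499, and Dusp9 stays under the dashed line.

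Among the nuclear enzymes, Dusp5, a phosphatase specific for ERK, was the member with the highest positive difference. Its single probe read 371, 465 and 710 in control 1, control 2 and control 3, and 848, 961 and 1050 in FEAT 3, FEAT 15 and FEAT 20. All 3 FEAT clones lay above all 3 control clones, and the step from the highest control clone to the lowest FEAT clone was smaller than the SD of the control clones, 175. Control clones had a mean of 516 ± 175 and FEAT clones one of 953 ± 101 (SD over 3 clones), and the log2 difference was 0.97 (SE 0.22) or 1.96-fold. Of all genes tested, 99.4% had a smaller absolute difference.

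Dusp4, which acts on ERK and JNK in the nucleus, differed in the opposite direction. Its brightest probe read 823, 663 and 1499 in the control clones 1, 2 and 3, and 490, 528 and 419 in FEAT 3, FEAT 15 and FEAT 20. The FEAT clones were close to each other and below every control clone, while control 3 was far above the other control clones. The log2 difference was -1.06 (SE 0.26), 2.08-fold lower, and 99.5% of all genes tested had a smaller absolute difference. Without control 3 it was -0.71, a value that keeps its sign, and without control 2 it was -1.32.

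The 3 other Dusp4 probes had differences of the same sign. The second probe read 731, 519 and 1244 in control clones and 419, 588 and 307 in FEAT clones, with FEAT 15 above control 2, so the groups overlapped (log2 -0.97, SE 0.31). The third read 254, 213 and 414 against 184, 199 and 178 with no overlap (log2 -0.71, SE 0.24). The fourth and dimmest, at 130 ± 44.1 in control clones against 96.7 ± 14.0 (SD over 3 clones), was above the background limit on all 3 control arrays and 1 FEAT array (log2 -0.58, SE 0.28). Over the 6 arrays the brightest probe correlated with the others at Pearson's r of 0.955, 0.981 and 0.927, a description of 6 points that include the group difference.

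Dusp1, the founding member of the family and an immediate-early gene that acts on p38, JNK and ERK, was bright in every clone. It read 11458, 8353 and 11344 in control 1, control 2 and control 3, and 7342, 7055 and 8706 in FEAT 3, FEAT 15 and FEAT 20. Control 2 lay slightly below FEAT 20, so the groups overlapped, with a log2 difference of -0.42 (SE 0.16). Without control 2 or without FEAT 20 the groups no longer overlapped. Dusp2, best known from activated lymphocytes, read 88.9 to 92.5 in control clones and 74.9, 95.6 and 115 in FEAT clones on its brightest probe, and only FEAT 3 passed the limit. Its other probe gave the same picture, with 121 in FEAT 3 and no other array above the limit, so no fold is given for Dusp2, and its log2 difference of 0.10 (SE 0.19) is one between values near background.

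The start regions of Dusp5 and Dusp1 are shown because these nuclear enzymes are both early response genes, with log2 differences of opposite sign. Windows of 250 bases before to 50 after the start, from RefSeq (GRCm38.p6), were used for 8 of the 10 genes, and those of Dusp4 and Dusp9 were not analysed here. Capitals mark matches, on either strand, to the cAMP response element (CRE, TGACGTCA), the AP-1 site (TGANTCA), the GC box (GGGCGG), the TATA box (TATAAA), an ETS site (CCGGAAG), the E-box (CACGTG) and the CArG box, the binding element of serum response factor. The Dusp5 window is chr19:53528895-53529194 on the + strand and the Dusp1 window is chr17:26508423-26508722 on the - strand.
Dusp5: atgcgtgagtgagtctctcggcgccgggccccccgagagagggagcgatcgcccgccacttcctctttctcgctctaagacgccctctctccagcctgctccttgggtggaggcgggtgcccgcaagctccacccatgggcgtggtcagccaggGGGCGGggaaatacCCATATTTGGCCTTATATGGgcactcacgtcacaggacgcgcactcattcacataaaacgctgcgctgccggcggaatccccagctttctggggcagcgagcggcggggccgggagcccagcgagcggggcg
Dusp1: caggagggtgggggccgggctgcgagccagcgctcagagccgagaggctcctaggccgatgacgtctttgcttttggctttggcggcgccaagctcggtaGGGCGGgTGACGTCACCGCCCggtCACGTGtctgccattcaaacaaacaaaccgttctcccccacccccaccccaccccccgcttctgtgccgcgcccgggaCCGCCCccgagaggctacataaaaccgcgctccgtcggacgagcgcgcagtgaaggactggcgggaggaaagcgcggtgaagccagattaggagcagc

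The Dusp5 window held 2 adjacent CArG boxes, whose first bases lie 82 and 72 bases before the start, and 1 GC box 96 bases before the start. A CArG box was found in 1.63% of the 32851 windows of this length and in 1 of the 8 family windows. The Dusp1 window held 1 CRE between 2 of its 3 GC boxes, and the Dusp8 window held 2 CREs, an element found in 1.79% of all windows. An E-box was in the Dusp1 and Dusp2 windows, against 7.15% of all windows, and a GC box in 7 of the 8 family windows, against 35.7%. The AP-1, TATA and ETS letters were in 0 of the 8 family windows, against 7.81%, 13.6% and 8.86% of all windows. G and C made up 57.3% to 78.7% of the 8 family windows, beside a median of 52.7% over all windows. The part of base composition in these shares was not tested. A match describes the letters of a window and is not a bound site.

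Of the cytoplasmic enzymes, Dusp6, the ERK phosphatase whose transcript is the usual readout of fibroblast growth factor signalling, overlapped between the groups on its brightest probe. That probe read 5042, 4171 and 7029 in control 1, control 2 and control 3, and 5790, 7755 and 6096 in FEAT 3, FEAT 15 and FEAT 20. Control 3 lay above FEAT 3 and FEAT 20, so the groups overlapped (log2 0.31, SE 0.19), and with 1 clone left out the difference ran from 0.15 without control 2 and 0.18 without FEAT 15 to 0.51 without control 3, where the groups did not overlap. The second probe read 673, 536 and 934 against 857, 1387 and 899 (log2 0.56, SE 0.23), again with control 3 among the FEAT clones. The third, at 220 to 242 in control and 250 to 390 in FEAT clones, had no overlap (log2 0.43, SE 0.18). FEAT 15 was the highest clone on all 3 Dusp6 probes.

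Dusp7, a close relative of Dusp6, read 1259, 1330 and 1660 in control clones and 1247, 1532 and 1337 in FEAT clones, with the groups mixed (log2 -0.07, SE 0.15). Control 3 was again the highest of the control clones and FEAT 15 the highest of the FEAT clones. Dusp9, known from placenta and embryonic stem cells, read 59.7 to 76.5 in control and 71.4 to 79.0 in FEAT clones, all below the limit, so no difference is given for it.

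The 3 enzymes that prefer JNK and p38 had overlapping groups. Dusp10 read 560, 528 and 735 in control clones and 705, 729 and 809 in FEAT clones, where only control 3 reached the FEAT range (log2 0.30, SE 0.16, with 0.20 without control 2 and 0.46 without control 3). Its other probe read 485, 484 and 637 against 610, 639 and 557, with control 3 above FEAT 3 and FEAT 20 (log2 0.17, SE 0.15). Dusp16 read 831, 1268 and 888 against 1149, 1159 and 1470, where control 2 lay above FEAT 3 and FEAT 15 (log2 0.34, SE 0.18). That difference was 0.54 without control 2 and 0.22 without control 1. Its second probe had the same order of groups, at 509 ± 149 in control clones against 602 ± 125 (SD over 3 clones), with control 2 again above FEAT 3 and FEAT 15 (log2 0.25, SE 0.22). The other Dusp16 probes read 79.1 to 102 over all arrays, and only the third probe in FEAT 20 was above the limit.

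Dusp8 varied most among the FEAT clones. It read 588, 760 and 704 in control clones, and 849, 533 and 914 in FEAT 3, FEAT 15 and FEAT 20, so that FEAT 15 was the lowest of all 6 clones and the other FEAT clones the highest. The difference of 0.11 (SE 0.21) was 0.38 without FEAT 15 and -0.03 without FEAT 20. The other Dusp8 probe had a difference of the opposite sign, -0.13 (SE 0.20), at 525, 682 and 713 against 623, 461 and 736, and FEAT 15 was again the lowest clone.

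**Figure D2:**
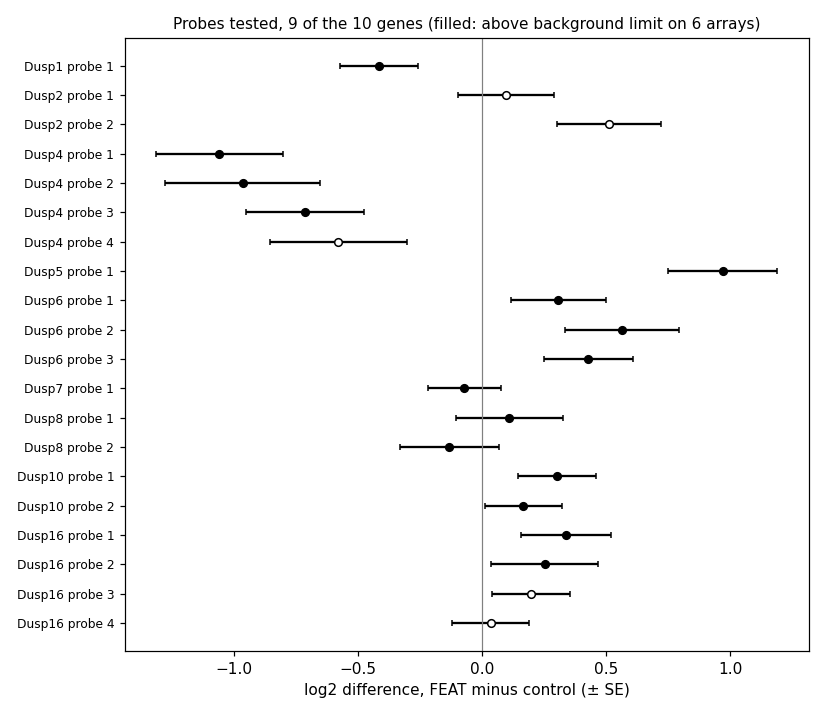
Log2 difference, FEAT minus control, with its standard error (horizontal axis) for the 20 probes of the family that were tested, numbered from the brightest probe of each gene; filled circles were above the background limit on all 6 arrays. The 4 Dusp4 probes lie between -1.06 and -0.58, the Dusp5 probe at 0.97, the 3 Dusp6 probes between 0.31 and 0.56, and the other filled probes between -0.42 (Dusp1) and 0.34 (Dusp16). The open Dusp2 circles rest on values near background.

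In the fit over all probes (limma, Benjamini-Hochberg adjusted p under 0.05) 0 of the 20 family probes tested passed, where 0.184% of all 27169 probes passed. At an unadjusted p under 0.05 the fit held 8 of the 20, the Dusp1 and Dusp5 probes, 3 of Dusp4, 2 of Dusp6 and 1 of Dusp2, where 9.08% of all probes did. The probes of a gene share their transcript, and the family was chosen from this comparison, so nothing is read from these counts. Without control 2 the brightest Dusp4 probe passed, and without control 3 the Dusp5 probe passed. The groups did not overlap for 2 of the 9 genes tested, Dusp4 and Dusp5, where 15.2% of all genes tested had no overlap. With 1 clone left out, that count was 4 without control 2, where 28.0% of all genes had no overlap, and 4 without control 3, where 26.8% did. It was 4 without FEAT 20 and 3 without FEAT 15, each beside 25.1%, and 2 without control 1 or FEAT 3, beside 23.8% and 24.4%.

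**Figure D3:**
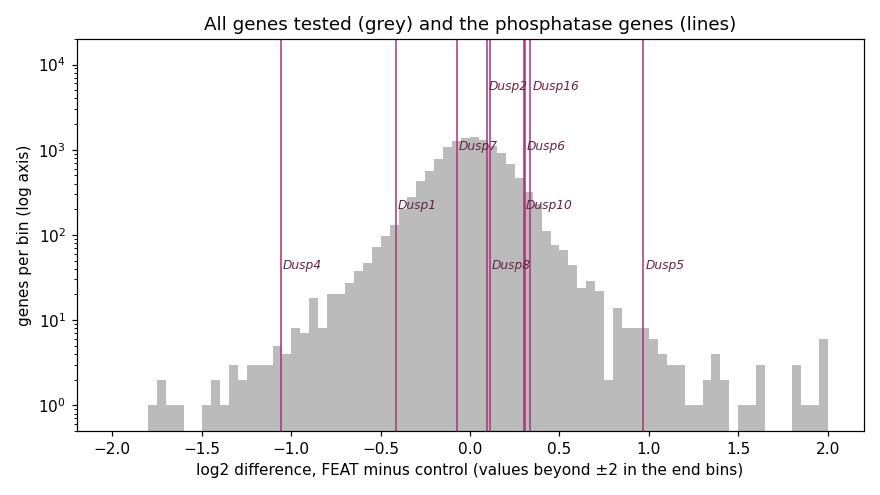
Number of genes (vertical axis, logarithmic) by log2 difference, FEAT minus control (horizontal axis), for the 13315 genes tested on their brightest probe, with values beyond the axis in the end bins and vertical lines at the 9 phosphatase genes tested. Dusp4 at -1.06 and Dusp5 at 0.97 lie in opposite tails, and Dusp7 at -0.07, Dusp2 at 0.10 and Dusp8 at 0.11 lie in the bulk.

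Clones of the same group differed from each other in this family. On the normalized log2 scale, control 3 was the highest control clone for 6 of the 8 genes above background, Dusp1, Dusp4, Dusp5, Dusp6, Dusp7 and Dusp10. It was the highest for 33.9% of all genes tested. For Dusp1 this was close to a tie, and in the deposited values control 1 read 11458 and control 3 read 11344. Control 3 was the lowest control clone for 0 of the 8. Against the mean of the other control clones, control 3 was higher by 1.04 for Dusp4, 0.85 for Dusp5, 0.62 for Dusp6, 0.47 for Dusp10, 0.35 for Dusp7 and 0.24 for Dusp1 on the log2 scale. Dusp16 was highest in control 2, which exceeded the other control clones by 0.60, and so was Dusp8.

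The SD between control clones was 0.62 for Dusp4, 0.52 for Dusp5 and 0.37 for Dusp6 on the log2 scale, beside a median of 0.17 over all genes tested. Of all genes tested, 98.9% had a smaller SD than Dusp4 between the control clones, 98.0% a smaller SD than Dusp5 and 92.7% a smaller SD than Dusp6. Between FEAT clones the SD was 0.20 for Dusp4 and 0.11 for Dusp5, beside a median of 0.15. For Dusp8 the order was reversed, with an SD of 0.20 between control and 0.47 between FEAT clones, larger than that of 97.1% of genes. Whether these spreads differ between the groups was not tested.

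**Figure D4:**
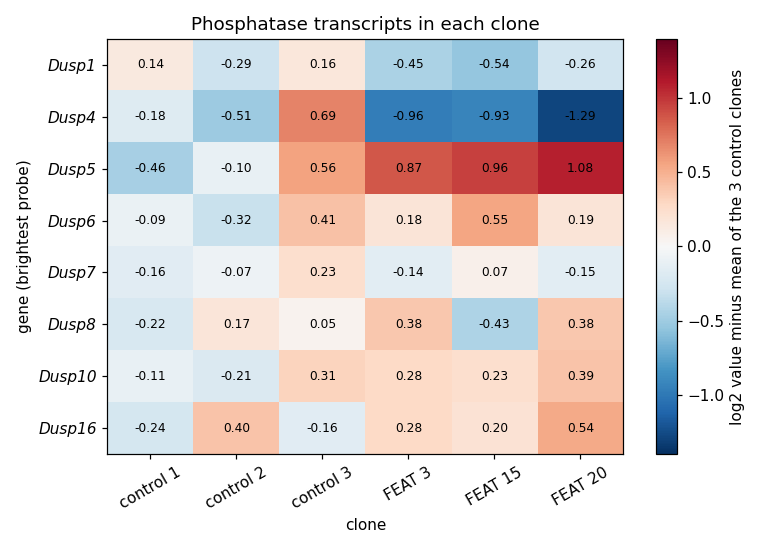
Log2 value of each clone minus the mean of the 3 control clones (colour and printed value) for the 8 phosphatase genes above background on all arrays, one row per gene and one column per clone. The Dusp4 row runs from 0.69 in control 3 to -1.29 in FEAT 20, the Dusp5 row from -0.46 in control 1 to 1.08 in FEAT 20, and the control 3 column is the highest of the control columns in 6 of the 8 rows.

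Across the 6 clones, Pearson's r between family members ran from -0.80 to 0.91 over 28 pairs, each point being 1 array of 1 clone, as a description without a test. Dusp5 went with Dusp10 (r = 0.91) and Dusp6 (0.75), and Dusp6 with Dusp10 (0.81). Dusp4 went with Dusp1 (0.81) and Dusp7 (0.66) and against Dusp16 (-0.80). Dusp4 and Dusp5 had an r of -0.47, since both were highest among the control clones in control 3 while their FEAT levels lay on opposite sides.

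The genes whose pattern over the 6 clones was most like that of a family member were taken from the 8516 other genes above background on all arrays. For Dusp5 these were Rin1, a RAS effector, Itpripl1 and Smap2 (r = 0.992, 0.990 and 0.988), and for Dusp4 Abi1, Tchp and Klk10 (0.993, 0.993 and 0.983). For Dusp6 they were Gpn2, Scaf8 and Errfi1, a feedback inhibitor of the EGF receptor (0.977, 0.976 and 0.974). Dusp1 was closest to Dgcr6, Mocs1 and Cops7b, Dusp7 to Tle3, Fbf1 and Exoc2, and Dusp8 to Yars, Snrpd3 and Scoc. Dusp10 was closest to Poldip3, Uspl1 and Tmem223, and Dusp16 to Aftph, Smyd5 and Rad51ap1. With 6 points, r of this size is found for every member, between 0.974 and 0.995.

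The rest of the MAP kinase pathway was looked at in 10 lists with 135 genes, of which 102 were tested. The lists were chosen with earlier results of these data known, so their counts are given as a description. On the brightest probe 2 rose and 0 fell in FEAT clones (limma, adjusted p under 0.05), where 0.135% of all genes were higher and 0.0901% lower. At an unadjusted p under 0.05, 11 were higher and 9 lower, beside 5.20% and 4.94% of all genes. The median log2 difference of the 102 genes was 0.040. Those that rose were the early response transcription factors Junb and Egr1. Junb read 792, 915 and 814 in control clones and 2185, 1794 and 1628 in FEAT clones, a log2 difference of 1.15 (SE 0.16, limma adjusted p = 0.0211). Egr1 read 4216, 4697 and 5188 against 9174, 8465 and 10844, a log2 difference of 1.01 (SE 0.15, limma adjusted p = 0.0237). Neither passed without control 1, without control 3 or without FEAT 3, and only Junb passed without FEAT 20. Without control 2, Egr3 and Fosl2 passed as well, but their other probes had differences of the opposite sign, -0.11 for Egr3 and -0.16 and -0.17 for Fosl2.

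Upstream kinases had 0 calls. Of the MAP kinases, 7 of 13 were tested, with a median of 0.089. Mapk11 and Mapk14, which encode p38 kinases, had differences of 0.31 and 0.23, and 0 of the 7 had an unadjusted p under 0.05. Of the MAP kinase kinases, 6 of 7 were tested, and the p38 activator Map2k6 stood lowest at -0.85 (SE 0.19, limma adjusted p = 0.152), with -0.72 and -0.56 on its other probes. It read 314, 298 and 411 in control clones and 180, 257 and 190 in FEAT clones with no overlap, and it alone in that list had an unadjusted p under 0.05. Map2k5, which activates ERK5, was at -0.09. Of the RAF, MOS and MAP3K genes, 12 of 18 were tested, with Map3k14 at 0.47 and Map3k11 at 0.51. At an unadjusted p under 0.05 the fit held 2 higher and 1 lower, beside 5.20% and 4.94% of all genes tested.

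Of the RAS proteins and their exchange factors and adaptors, 12 of 15 were tested. The RAS relatives Mras and Rras were at -0.38 and 0.36, and Mras alone had an unadjusted p under 0.05. Of the scaffolds and docking proteins, 10 of 12 were tested, and 2 were lower at that level, beside 4.94% of all genes tested. These were Pebp1, the RAF kinase inhibitor protein, at -0.54 (SE 0.14, limma adjusted p = 0.212) with no overlap, and the JNK scaffold Mapk8ip1 at -0.34. Of the kinases activated by MAP kinases, 5 of 11 were tested, with Rps6ka5 at 0.27 and Mknk2 at 0.14, and 0 had an unadjusted p under 0.05.

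The early response transcription factors and the ERK feedback regulators include, like the phosphatases, many genes that ERK induces. Of 18 early response genes tested, 7 were higher and 0 lower at an unadjusted p under 0.05, with a median of 0.32. Over all genes tested, 5.20% were higher and 4.94% lower at that level. Nothing is read from these counts, since the list was chosen with earlier results of these data known. Klf10, 1 of the 7, was above the background limit on 0 control arrays and 1 FEAT array. Egr3 and Fosl2, with other probes of opposite sign as given above, are also among the 7. The summed intensity of the early response genes was 28254 to 31765 in control and 36498 to 41409 in FEAT clones. Bright genes weigh most in that sum, with Egr1 at a mean of 4700 in control and 9494 in FEAT clones. Klf6 was at 8460 in control and 8321 in FEAT clones, and Klf4 at 5891 and 5308. Of 11 feedback regulators tested, 1 was higher and 3 lower at that level, with a median of 0.095 and 0 calls after adjustment. Spred2, an inhibitor of RAF activation, was at -0.42, reading 134 to 142 in control and 110 to 118 in FEAT clones near the background limit, with -0.11 on its other probe. Etv4, an ETS factor downstream of ERK, was at -0.78, reading 709, 1025 and 1251 in control and 486, 852 and 508 in FEAT clones. The groups overlapped for Etv4 and not for Spred2.

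The clone pattern of the phosphatases was also looked for in these lists. Of all 8517 genes tested and above background on every array, 34.7% were highest among the control clones in control 3. Control 3 was the highest control clone for 6 of 10 feedback regulators and 8 of 15 early response genes above background. It was also the highest for 8 of 11 RAS proteins and exchange factors, 4 of 6 MAP kinase kinases, 5 of 9 RAF, MOS and MAP3K genes and 3 of 5 MAP kinases. The count was 3 of 5 for kinases activated by MAP kinases and 3 of 6 for other phosphatases acting on MAP kinases. For scaffolds and docking proteins it was 1 of 7. Etv5 and Errfi1, named here after their values were seen, were higher in control 3 than in the mean of the other control clones by 1.10 and 0.71 on the log2 scale, beside 1.04 for Dusp4. The feedback regulators ran from -0.11 for Sulf1 to that 1.10 for Etv5 on this measure, with Spred2 at -0.09, Spry4 at 0.010 and Spry3 at 0.014. The early response genes ran from -0.42 for Jund to 0.78 for Egr3, with Klf4 at -0.16, Myc at -0.13 and Fosl2 at -0.12. These genes were likewise named after their values were seen. For the atypical and other dual-specificity phosphatases outside the family, control 3 was the highest control clone for 0 of 7. These counts use the normalized log2 values. On the scale of the deposited values control 3 was slightly the highest for Dusp3, at 1952 beside 1937 in control 2.

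Of those 16 atypical and other relatives, 13 were tested, with a median of -0.067 and 0 calls. At an unadjusted p under 0.05, 1 was higher and 1 lower, beside 5.20% and 4.94% of all genes tested. Dusp11, an RNA phosphatase, read 1658, 2240 and 2050 in control and 2506, 2447 and 2878 in FEAT clones (log2 0.38, SE 0.15), with -0.22 on its other probe. Dusp12 was at -0.34 near the background limit. Other phosphatases that act on MAP kinases, 8 of 9 tested, had a median of 0.062, with 0 calls and 0 at an unadjusted p under 0.05. The catalytic subunit gene Ppp2ca of protein phosphatase 2A was at 0.27 and Ppm1a at 0.21, both with no overlap. In that list 4 of 8 had no overlap, among them Ptprr at background on all arrays, where 15.2% of all genes tested had no overlap.

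**Figure D5:**
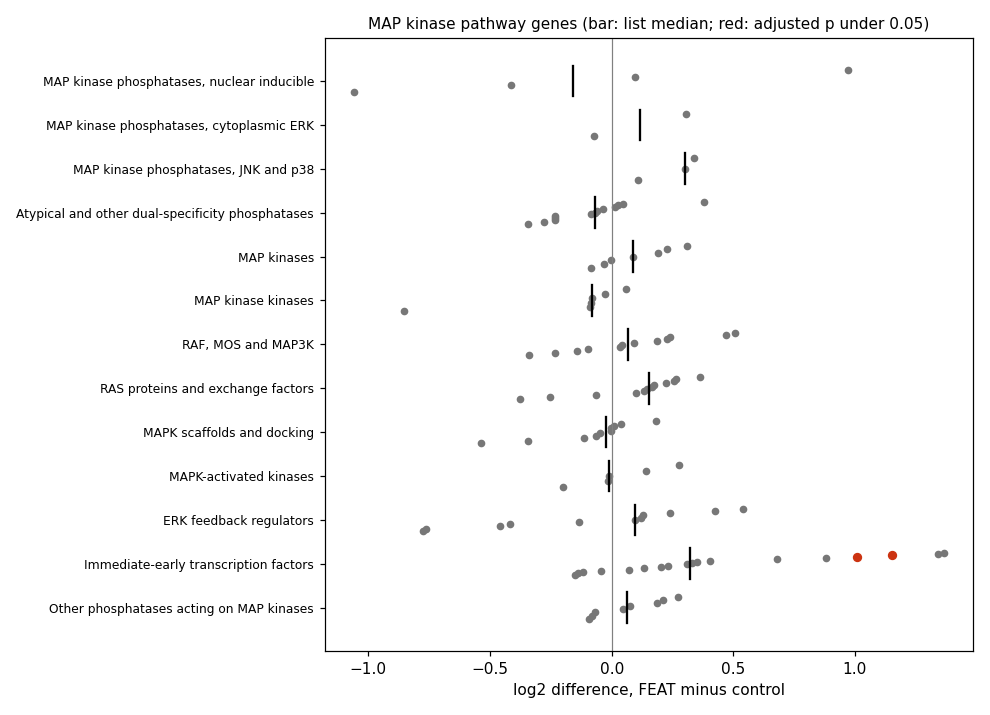
Log2 difference, FEAT minus control, on the brightest probe (horizontal axis) for each tested gene of 13 lists of MAP kinase phosphatases and pathway genes, one row per list; the black bar is the list median and red points passed an adjusted p of 0.05. The red points are Egr1 at 1.01 and Junb at 1.15, and the nuclear phosphatases spread from Dusp4 at -1.06 to Dusp5 at 0.97.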

How the data were processed

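Total RNA was prepared on RNeasy columns and labelled with Cy3 after TotalPrep amplification, per the labels. The deposited values were linear probe intensities from BeadStudio, per the submitters' processing notes (version not given in the sources used here). Array files were unscaled, with background left in and no detection p. The deposited value table held the same intensities times 1 factor per array (0.925 to 1.10). Values were corrected with normexp (offset 16), quantile normalized and taken to log2 in R 4.3.3 with limma 3.58.1. The top 60% of probes by mean (27169) entered lmFit and eBayes, two-sided, with Benjamini-Hochberg adjustment over all probes tested. P-values set the difference between the group means against the spread between clones within the groups, 1 array each, moderated over all probes tested. The background limit was the most frequent log2 intensity of an array plus 3 times the root mean square distance of lower values from it. The brightest probe stood for a gene. Of the probes, 34885 had 1 gene symbol in the platform annotation, 18 several and 10378 none. Named genes were all family members, list genes past the threshold or else the 2 with the smallest unadjusted p, and the 3 most similar genes per member; genes outside this rule were named after their values were seen. Genes of the lists without a named probe were not analysed here. Members and lists were chosen with earlier results of these data known. The steps were tested on simulated data. The number of arrays limits the precision.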

Additional observations from a re-analysis of the deposited data

How the results depend on the processing

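Over all probes 50 passed, and 38 to 68 did so under the 7 alternatives of background correction, scaling, filter and variance model. With 1 clone left out the count ran from 0 (without control 1, where 1925 probes had an unadjusted p under 0.05) to 158 (without control 2), with 12 without control 3 and 18 without FEAT 3. The count of family probes that passed was 0 in all 7 alternatives and 0 to 1 in the 6 omissions. The count of family genes with no overlap stayed at 2 in the alternatives, also with the mean of a gene's tested probes, and ran from 2 to 4 in the omissions. Of all genes tested, 13.2% to 17.1% had no overlap in the 7 alternatives and 23.8% to 28.0% in the omissions. The changed background corrections, filters and variance model keep the order of the clones for each probe. Only the deposited value table, median scaling and the probe mean could change that order. The pathway genes that passed were Egr1 and Junb in all 7 alternatives, joined by Fosl2 (other probes -0.16 and -0.17) in 3 of them, for a count of 3 with median scaling or the other variance model and, with Jun too, of 4 with the deposited value table. In the omissions the count ran from 0 to 4. The causes were not tested. None of the 125 log2 differences of family members under an alternative or an omission moved by 1 SD between clones or more. For the omissions this was nearly fixed in advance, since leaving out 1 of 3 clones moves a group mean by less than that. The changed filters and the other variance model use the same normalized values, so no log2 difference could move there. The mean of tested probes could not move a gene with a single probe. Nothing is therefore read from it for the omissions or for these settings. Sign changes occurred for Dusp8 in 4 of the 125 differences, Dusp7 in 1 and Dusp2 in 1, all values near 0, and in 0 for the other members tested. The Dusp5 difference ran from 0.74 to 1.25 and that of Dusp4 from -1.32 to -0.71 over the omissions. No paired analysis was possible because the clone numbers only name separate lines and the groups share 1 number. Folds of probes near the background limit depend on the correction.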
